A study of Mus musculus with 12 samples.

Results

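Genes that build the ribosome in the nucleolus were followed across 12 one-colour microarrays hybridised with RNA of mouse embryonic stem cells, a cell type that can form every tissue of the embryo. The set held 38 named genes, and its members were the probes whose transcript accession belongs to one of these genes. All 38 were on the array, through 60 probes of the 34327 kept, and each gene was read from its brightest probe, so the set made up 38 of the 26836 genes tested. The members fall into RNA polymerase I and its factors (6 genes), the box C/D particle (4), the box H/ACA particle (4), processing of the small subunit (10), processing of the large subunit (8) and nucleolar scaffold and regulatory proteins (6).

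The arrays covered 4 groups of 3 biological replicates. The first received 1 µM MG132, a proteasome inhibitor, and 250 nM 4OHT from 30 min later for 6 h. The second received MG132 on that schedule with no 4OHT. The third received 250 nM 4OHT for 6 h. The fourth was left untreated and was titled as 0 h. Every culture, the untreated ones included, grew in medium with leukaemia inhibitory factor (LIF), a cytokine that sustains pluripotency, and 250 nM PD173074, a blocker of the fibroblast growth factor receptors that feed into the kinase ERK. 4OHT, or 4-hydroxytamoxifen, is an oestrogen receptor ligand used in the laboratory to activate engineered receptor fusions. The labels give no such fusion, clone or vehicle control, and no group was untreated at 6 h, so compound and hours in culture cannot be told apart in a comparison with untreated cells.

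Ribosome production starts in the nucleolus, where RNA polymerase I transcribes a long precursor of the ribosomal RNAs. Small nucleolar ribonucleoproteins then modify the precursor, the box C/D particles adding methyl groups to ribose and the box H/ACA particles turning uridine into pseudouridine, while large sets of assembly factors cleave and fold it into the small and the large subunit. In growing cells this pathway is a main consumer of resources, many of its genes are known targets of the transcription factor MYC, which binds the E-box CACGTG, and mouse embryonic stem cells are known for prominent nucleoli.

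Promoter windows, from 250 bases before to 50 bases after the annotated start, are shown for 4 members at the extremes of the responses, as RefSeq gives them for the GRCm38.p6 assembly. Ddx21 (chr10:62602249-62602548, minus strand) had the largest rise with 4OHT, and Wdr43 (chr17:71615965-71616264, plus strand) the largest such rise among the small subunit factors. Utp20 (chr10:88826765-88827064, minus strand) had the largest rise with MG132, and Nop10 (chr2:112261676-112261975, plus strand) the largest fall. Sequences run 5′ to 3′ along the gene, and capitals mark a match to the E-box CACGTG or to CCGGAAG, a core of ETS factor sites, on either strand.
Ddx21: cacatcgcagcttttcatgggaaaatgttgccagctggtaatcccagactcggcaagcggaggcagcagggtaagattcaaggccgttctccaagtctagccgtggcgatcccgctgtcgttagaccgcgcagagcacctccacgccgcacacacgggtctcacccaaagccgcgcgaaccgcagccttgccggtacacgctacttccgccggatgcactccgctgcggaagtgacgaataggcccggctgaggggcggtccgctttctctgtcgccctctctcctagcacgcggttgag
Wdr43: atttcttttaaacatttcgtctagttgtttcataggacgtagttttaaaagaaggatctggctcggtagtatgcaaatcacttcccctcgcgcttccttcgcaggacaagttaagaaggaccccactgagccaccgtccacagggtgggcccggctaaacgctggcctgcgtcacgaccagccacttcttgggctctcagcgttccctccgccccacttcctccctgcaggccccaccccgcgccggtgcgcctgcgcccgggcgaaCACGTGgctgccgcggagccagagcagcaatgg
Utp20: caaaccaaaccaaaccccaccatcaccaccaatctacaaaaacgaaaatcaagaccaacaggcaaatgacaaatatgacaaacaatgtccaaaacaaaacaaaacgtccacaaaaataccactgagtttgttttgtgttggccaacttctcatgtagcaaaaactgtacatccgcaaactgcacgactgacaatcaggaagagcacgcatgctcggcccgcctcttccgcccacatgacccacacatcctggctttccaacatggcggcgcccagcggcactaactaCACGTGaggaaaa
Nop10: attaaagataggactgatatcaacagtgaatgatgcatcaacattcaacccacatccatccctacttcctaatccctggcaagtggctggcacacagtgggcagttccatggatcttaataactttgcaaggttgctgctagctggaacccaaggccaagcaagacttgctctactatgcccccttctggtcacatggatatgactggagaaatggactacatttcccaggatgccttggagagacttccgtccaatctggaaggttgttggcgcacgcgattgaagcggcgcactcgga
The E-box of Wdr43 lay 17 to 22 bases after the start and that of Utp20 37 to 42 bases after it, while the windows of Ddx21 and Nop10 held neither motif. A window was on hand for 32 of the 38 members. CACGTG was in the windows of 9 of these 32 (28.1%), against 8.09% of 27025 genes with a window, and CCGGAAG in those of 10 (31.2%), against 9.93%. The 9 with an E-box were Rrn3, Utp20, Wdr43, Imp4, Pno1, Ltv1, Pes1, Nop2 and Mybbp1a. These matches describe letters in a window, and binding was not measured.

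A gene's value is given as its relative signal, the processed brightness of its probe divided by the 75th percentile of the array's spots (309 to 485 units), and a change as a log2 difference of group means ± SE from limma. A gene was called at an adjusted p under 0.05. All members were well above background on all 12 arrays, except that the Nop56 spot carried an outlier mark on MG132 replicate 1 and had 11 values. MG132 replicate 3 shared slide 2 with the arrays of cells given both compounds, and slide 1 held all other arrays. About the group means, all genes had an SD of 0.39 to 0.45 in the 4OHT group and of 0.19 to 0.29 elsewhere. Over the members it was 0.10 to 0.20 in the 4OHT group and 0.05 to 0.10 elsewhere. The members were bright, at a median percentile of 91.1 among the genes tested (52.8 to 99.3). Shares of all genes printed beside them thus rest mostly on dimmer genes, and the part of brightness and spread in the calls was not tested. All 10 embryonic stem cell markers were above background in every group, with a summed relative signal of 503 to 576 with MG132 and 4OHT, 528 to 541 with MG132, 860 to 889 with 4OHT and 884 to 920 in untreated cells. Markers of primitive endoderm summed to 197 to 230, 121 to 179, 149 to 233 and 130 to 187 in the same order of groups. Those of fibroblasts summed to 86.1 to 102, 72.7 to 77.6, 104 to 138 and 66.5 to 90.8. Of the 10 fibroblast markers, 6 were above background on all 4OHT arrays and 8 on all arrays of every other group. Col3a1 was not above background on any array of the MG132, 4OHT and untreated groups. The same held for Postn in the 4OHT and untreated groups and for Col1a1 in the 4OHT group. The part of these marker differences in the results was not tested. Centring each array on its median instead of the 75th percentile moved the median of all genes by -0.18 in 4OHT against untreated, -0.35 in MG132 against untreated, -0.42 in MG132 with 4OHT against untreated, -0.07 in MG132 with 4OHT against MG132 and -0.25 in MG132 with 4OHT against 4OHT, so changes are set beside the median of all genes.

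**Figure D1:**
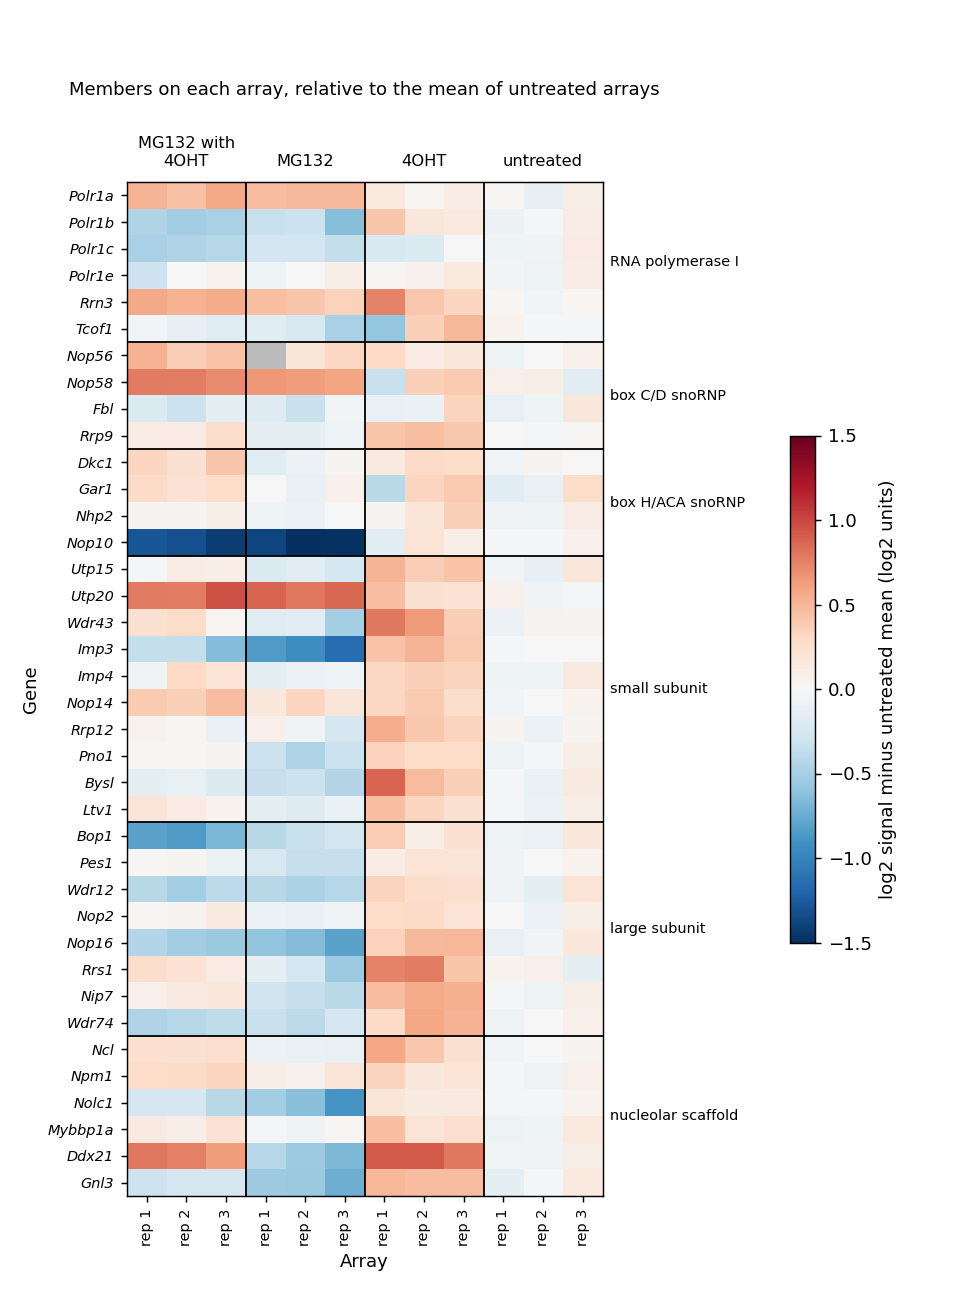
Heat map of the 38 members (down, grouped by role) over the 12 arrays (across, by group); colour is the log2 relative signal minus the untreated mean, on a scale of -1.5 to 1.5, and grey marks the missing Nop56 value. The median over members was 0.34, 0.32 and 0.30 on the 4OHT arrays and -0.18, -0.18 and -0.26 on the MG132 arrays.

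The first comparison set 4OHT-treated against untreated cells. Of the 38 members, 21 rose, none fell and 17 were not called, where 28.6% of all genes were called, 13.9% higher and 14.7% lower. The members' median change was 0.30 against 0.03 over all genes, and 37 of 38 had a positive value. The members' median lay closer to that of all genes with normexp background correction (0.24 against 0.16) and with no filter on dim probes (0.30 against 0.25). In 28 members the lowest 4OHT array lay above the highest untreated array, which was so in 21.0% of all genes, and 40.9% had groups apart in either direction. All 10 small subunit factors rose, as did 5 of 8 large subunit factors, 4 of 6 scaffold proteins, 1 of 6 RNA polymerase I genes, 1 of 4 box C/D genes and none of the 4 box H/ACA genes, with medians of 0.38, 0.36, 0.35, 0.09, 0.17 and 0.15 in that order.

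Among the small subunit factors, Wdr43, the counterpart of yeast Utp5, had 23.9, 21.5 and 17.8 in 4OHT cells, against 12.97, 14.2 and 14.1 in untreated cells. The groups did not overlap, and Wdr43 rose by 0.60 ± 0.14 (1.52-fold, adjusted p = 0.0074). Bysl, which takes part in late small subunit assembly, had 23.1, 17.5 and 16.1 in 4OHT cells and 12.4, 11.8 and 13.9 in untreated cells. All 3 treated arrays were higher, replicate 1 most, and the change was 0.56 ± 0.13 (adjusted p = 0.0086). Imp3, a partner of the U3 small nucleolar RNA, had 51.2, 54.2 and 50.1 in 4OHT cells, against 37.7, 38.2 and 38.2 in untreated cells, a rise of 0.45 ± 0.11 (adjusted p = 0.010). Each 4OHT value of Imp3 lay above every untreated one. The other 7, Utp15, Utp20, Imp4, Nop14, Rrp12, Pno1 and Ltv1, rose by 0.30 (Utp20) to 0.44 (Utp15), and all had groups apart. Of the 10 calls, 4 (Utp15, Wdr43, Imp3 and Bysl) were kept whichever of the 12 arrays was left out, and the other 6 were lost without untreated replicate 2.

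Of the large subunit factors, Rrs1, which helps bring the 5S ribonucleoprotein into the particle in yeast, had 16.3, 16.5 and 12.9 in 4OHT cells, against 10.01, 10.2 and 8.84 in untreated cells. Replicate 3 was the lowest of both groups, the groups were apart, and the rise was 0.65 ± 0.13 (1.56-fold, adjusted p = 0.0047). Nip7, a processing factor, had 39.0, 41.8 and 41.1 in 4OHT cells, against 27.8, 26.9 and 30.5 in untreated cells, a rise of 0.52 ± 0.08 (adjusted p = 0.00092). No untreated value of Nip7 reached a treated one. Wdr74, the counterpart of yeast Nsa1, rose by 0.46 ± 0.10, Nop16 by 0.44 ± 0.10 and the ribosomal RNA methyltransferase Nop2 by 0.25 ± 0.08, a call lost without untreated, 4OHT, MG132 or MG132 with 4OHT replicate 1 or 2. Bop1, Pes1 and Wdr12, which form the PeBoW complex, were not called, at 0.23 ± 0.11, 0.17 ± 0.08 and 0.28 ± 0.10 (adjusted p = 0.13, 0.14 and 0.059 in that order).

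The largest change of any member was that of Ddx21, an RNA helicase of the nucleolus that acts in both RNA polymerase I and II transcription. It had 20.1, 20.2 and 18.4 in 4OHT cells, against 10.3, 10.3 and 11.3 in untreated cells, and rose by 0.88 ± 0.09 (1.84-fold, adjusted p = 9.0e-05). The call was kept in all 26 alternatives. Gnl3, or nucleostemin, a GTPase abundant in stem cells, had 16.3, 15.9 and 16.0 in 4OHT cells and 10.5, 11.4 and 12.8 in untreated cells (0.48 ± 0.09, adjusted p = 0.0034). The 4OHT arrays of Gnl3 were close together and the untreated ones spread more. Nucleolin (Ncl), a major RNA-binding protein of the nucleolus, had 180.1, 159 and 142 in 4OHT cells, against 117, 121 and 124 in untreated cells (0.40 ± 0.09, adjusted p = 0.0083). Mybbp1a rose by 0.31 ± 0.10, a call lost without untreated or MG132 replicate 1 or 2, 4OHT replicate 1 or any MG132 with 4OHT array. Nucleophosmin (Npm1) had groups apart but was not called (0.24 ± 0.08, adjusted p = 0.054), and neither was Nolc1 (0.15 ± 0.10).

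Of the genes of transcription and of the snoRNA particles, Rrn3 and Rrp9 rose. Rrn3, which recruits RNA polymerase I to the ribosomal gene promoter, had 24.2, 19.1 and 18.0 in 4OHT cells, against 14.6, 14.1 and 14.7 in untreated cells, and rose by 0.49 ± 0.11 (1.40-fold, adjusted p = 0.0071). The untreated arrays were close together and all treated arrays were higher. Rrp9, a protein of the U3 particle, had 15.2, 15.6 and 15.1 in 4OHT cells and 11.4, 11.3 and 11.6 in untreated cells, a rise of 0.42 ± 0.08 (adjusted p = 0.0021). Its 2 groups were tight and apart. Dkc1, the pseudouridine synthase of the H/ACA particle, had 6.07, 6.70 and 6.62 in 4OHT cells, against 5.32, 5.63 and 5.53 in untreated cells, which did not pass (0.23 ± 0.09, adjusted p = 0.083). The methyltransferase fibrillarin (Fbl) had 135, 136 and 183 in 4OHT cells and 136, 140.2 and 164 in untreated cells, and Nop10, the smallest H/ACA protein, 27.8, 36.1 and 33.3, against 30.7, 30.7 and 32.7. Both had overlapping groups and the smallest changes of all members, 0.04 ± 0.14 and 0.04 ± 0.11.

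In 3 members 4OHT replicate 1 lay far below the other 4OHT arrays. Treacle (Tcof1), a factor of ribosomal gene transcription, had 17.0 on that array and 32.5 and 35.8 on the other 4OHT arrays, against 26.3, 24.95 and 25.01 in untreated cells. Nop58, a core protein of the C/D particle, had 25.5 there, with 41.4 and 42.3 on the other 4OHT arrays, against 33.9, 34.1 and 28.8 in untreated cells. Gar1, of the H/ACA particle, had 34.2 there, with 56.4 and 59.4 on the others, against 40.2, 41.9 and 54.9. With the array kept, the changes were 0.09 ± 0.23, 0.14 ± 0.17 and 0.10 ± 0.20, none called. Without it they were 0.42 (adjusted p = 0.017) for Tcof1, 0.38 (adjusted p = 0.015) for Nop58 and 0.36 (adjusted p = 0.077) for Gar1. Both Tcof1 probes, both Gar1 probes and 3 of 4 Nop58 probes were low on that array. So was a second Dkc1 probe, at 1.67, with 4.95 and 4.43 on the other 4OHT arrays, while Rrn3 and Bysl were highest there. On the fourth Nop58 probe the 4OHT values were 42.2, 42.2 and 42.0, against 29.5, 32.1 and 32.2 in untreated cells, a called rise of 0.43 ± 0.08 (adjusted p = 0.0023).

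Each setting of the scaling that was tried kept the 4OHT calls on the higher side, and it changed how many there were. The 21 became 13 under quantile normalization, where 11.1% of all genes were called higher, and 4 under median centring (Rrn3, Bysl, Rrs1 and Ddx21), a share near the 8.43% of all genes called higher there. There were 19 with normexp background correction, where 26.3% of all genes were called higher. There were 9 with the 6 compared arrays alone, where 9.35% of all genes were, and 13 without untreated replicate 2, where 10.6% were.

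**Figure D2:**
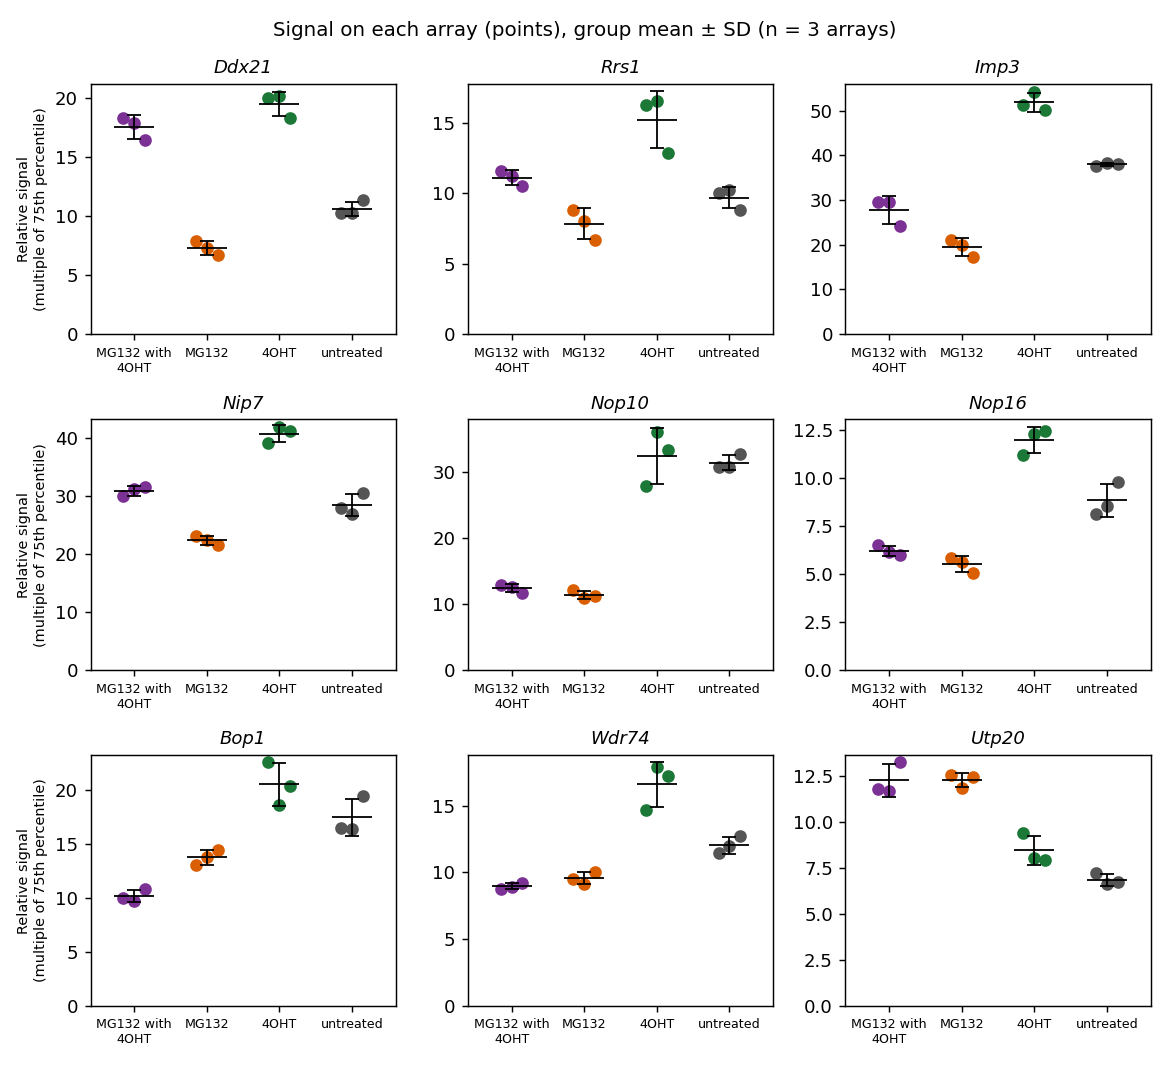
Relative signal (no unit, linear axis) of 9 members, 1 panel each, with a point for every array and error bars at the group mean ± SD, groups from left to right MG132 with 4OHT, MG132, 4OHT and untreated. Ddx21, Rrs1, Imp3 and Nip7 are higher with 4OHT on both backgrounds, Nop10 and Nop16 are lower with MG132 on both, and Utp20 is higher with MG132 on both.

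The second comparison set MG132 against untreated cells. Here 4 members rose, 15 fell and 19 were not called, where 43.1% of all genes were called, 24.1% higher and 19.0% lower. The members' median was -0.20 against 0.07 over all genes, and under quantile normalization -0.13 against -0.04. Groups were apart with MG132 lower in 23 members and higher in 6, against 26.2% and 33.3% of all genes (59.5% in either direction). Falls were counted in 6 of 8 large subunit factors, 3 of 10 small subunit factors, 3 of 6 scaffold proteins, 2 of 6 RNA polymerase I genes, 1 of 4 H/ACA genes and no C/D gene.

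Nop10 fell furthest, to 12.1, 10.9 and 11.2 in MG132 cells, against 30.7, 30.7 and 32.7 in untreated cells. The log2 change was -1.46 ± 0.11, a 2.76-fold fall (adjusted p = 5.5e-06), with a wide gap between the groups. The other H/ACA genes did not pass: Dkc1 was at -0.07 ± 0.09, Nhp2 at -0.05 ± 0.10, and Gar1, with 45.3, 42.0 and 47.7 in MG132 cells and 40.2, 41.9 and 54.9 in untreated cells, at -0.01 ± 0.20. Of the 4 genes, Nop10 alone had its groups apart.

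Imp3 had 21.1, 19.9 and 17.3 in MG132 cells, against 37.7, 38.2 and 38.2 in untreated cells, a fall of 1.96-fold (-0.97 ± 0.11, adjusted p = 6.8e-05). Every MG132 value was below every untreated one. Its partner in the same complex, Imp4, was at -0.10 ± 0.10 and was not called. Pno1 and Bysl fell by 0.37 each on the log2 scale (adjusted p = 0.0040 and 0.042), and the call for Bysl was lost when any untreated, MG132 or MG132 with 4OHT array was left out. Utp20, a very large scaffold of the small subunit precursor, went the other way, with 12.5, 11.8 and 12.4 in MG132 cells, against 7.21, 6.59 and 6.72 in untreated cells. Its groups were far apart and it rose by 0.84 ± 0.10 (1.79-fold, adjusted p = 7.9e-05).

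Nop16 led the large subunit factors, with 5.87, 5.61 and 5.06 in MG132 cells and 8.16, 8.58 and 9.83 in untreated cells (-0.68 ± 0.10, adjusted p = 0.00040). Its groups were apart. All 3 PeBoW genes fell, Wdr12 by 0.44 ± 0.10, Bop1 by 0.34 ± 0.11 and Pes1 by 0.31 ± 0.08, as did Nip7 by 0.35 ± 0.08 and Wdr74 by 0.33 ± 0.10. Bop1 and Wdr74 lost the call without untreated replicate 3 or MG132 replicate 2, and Bop1 also without MG132 replicate 1. Bop1, Pes1, Nip7 and Wdr74 each lost it under quantile normalization and within slide 1. Wdr12 and Nop16 kept the call in all 26 alternatives. Rrs1 was at -0.31 ± 0.13 (adjusted p = 0.083) and Nop2 at -0.08 ± 0.08.

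Of the scaffold proteins, Nolc1, a chaperone of snoRNA particles, had 23.3, 21.6 and 18.1 in MG132 cells, against 32.9, 32.8 and 34.8 in untreated cells (-0.68 ± 0.10, adjusted p = 0.00048). MG132 replicate 3 was the lowest, and the groups were apart. Gnl3 had 7.90, 7.86 and 6.98 in MG132 cells and 10.5, 11.4 and 12.8 in untreated cells (-0.61 ± 0.09, adjusted p = 0.00050). Ddx21 had 7.87, 7.29 and 6.68, against 10.3, 10.3 and 11.3 (-0.55 ± 0.09, adjusted p = 0.0010). For Gnl3 and Ddx21 no MG132 value reached an untreated one. Npm1 and Mybbp1a were at 0.12 ± 0.08 and -0.03 ± 0.10.

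The RNA polymerase I genes split. Polr1a, the largest catalytic subunit, had 14.5, 14.8 and 14.8 in MG132 cells, against 10.7, 9.65 and 11.3 in untreated cells, and rose by 0.48 ± 0.09 (adjusted p = 0.0013). Rrn3 had 19.7, 19.3 and 18.3 in MG132 cells, against 14.6, 14.1 and 14.7 in untreated cells, and rose by 0.40 ± 0.11 (adjusted p = 0.013). In both genes the MG132 arrays were all higher. The second-largest subunit Polr1b fell by 0.43 ± 0.11, with 6.13, 6.17 and 4.99 in MG132 cells and 7.27, 7.64 and 8.36 in untreated cells, and Polr1c, which RNA polymerases I and III share, fell by 0.31 ± 0.09, a call lost without MG132 or untreated replicate 3. Polr1e had 3.79, 4.00 and 4.25 in MG132 cells and 3.89, 3.79 and 4.33 in untreated cells, with overlapping groups and a change of 0.00 ± 0.11. Among the C/D genes Nop58 had 50.6, 49.5 and 48.6 in MG132 cells, against 33.9, 34.1 and 28.8 in untreated cells, all higher with MG132. It rose by 0.62 ± 0.17 (adjusted p = 0.015), a call lost without untreated replicate 3.

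Scaling set the split of these calls. The 4 rises and 15 falls became 6 and 9 under quantile normalization, where 20.4% of all genes were called higher and 21.2% lower, so that the share of falls among members was near that of all genes. Under median centring they became 1 and 29, with Utp20 the sole rise, where 13% of all genes were called higher and 35.6% lower. Within slide 1, with 2 MG132 and 3 untreated arrays, 10 members were called (2 higher, 8 lower), where 18.1% of all genes were called higher and 15.2% lower. In that fit Nop10 was at -1.45, Imp3 at -0.89, Nop16 at -0.62, Nolc1 at -0.58, Utp20 at 0.83 and Polr1a at 0.47, while Rrn3 and Nop58 did not pass there (adjusted p = 0.057 and 0.075).

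Cells given MG132 with 4OHT were next set against untreated cells. Of the members 10 rose, 10 fell and 18 were not called, where 55.6% of all genes were called, 33.2% higher and 22.5% lower, and the members' median was 0.07 against 0.19 over all genes. Groups were apart with the doubly treated cells higher in 12 members and lower in 13, against 44.0% and 28.0% of all genes (72.0% in either direction). No slide held both groups, so slide and treatment cannot be told apart within a slide. With slide as a block, which rests on the MG132 arrays on both slides, the rises of Polr1a, Rrn3, Utp20, Nop14 and Ddx21 and the falls of Nop10, Bop1 and Wdr74 remained called, 5 and 3 in all. In that fit 14.2% of all genes were called higher and 12% lower.

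The falls were led by Nop10, with 12.9, 12.6 and 11.7 in cells given both compounds, against 30.7, 30.7 and 32.7 in untreated cells (-1.34 ± 0.11, adjusted p = 4.7e-06). Bop1, the second largest fall, had 9.99, 9.69 and 10.8 with both compounds, against 16.5, 16.4 and 19.5 in untreated cells (-0.78 ± 0.11, 1.72-fold, adjusted p = 0.00015). In both genes the groups were apart, and the values with slide as a block were -1.31 and -0.88. Nop16 (-0.50 ± 0.10) and Polr1b (-0.49 ± 0.11) also fell, and with slide as a block they were at -0.32 and -0.18 and were not called. The other falls were those of Imp3, Polr1c, Wdr12, Wdr74, Nolc1 and Gnl3, from -0.27 (Gnl3) to -0.46 (Imp3). The call for Gnl3 was lost without untreated replicate 2 or 3 or any MG132 with 4OHT array, and that for Nolc1 without any untreated array or MG132 with 4OHT replicate 3.

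The rises were led by Utp20, with 11.8, 11.7 and 13.3 in cells given both compounds, against 7.21, 6.59 and 6.72 in untreated cells (0.84 ± 0.10, adjusted p = 4.9e-05). Ddx21 had 18.4, 17.9 and 16.4 with both compounds and 10.3, 10.3 and 11.3 in untreated cells (0.72 ± 0.09, adjusted p = 0.00012), and with slide as a block it was at 0.91. Both genes were higher on all 3 treated arrays. Nop58 rose by 0.75 ± 0.17, Rrn3 by 0.55 ± 0.11 and Polr1a by 0.51 ± 0.09, and with slide as a block Nop58 did not pass (0.80, adjusted p = 0.11). Nop56, of the C/D particle, had 101, 90.8 and 94.95 with both compounds, against 66.9, 70.9 and 74.1 in untreated cells, a rise of 0.44 ± 0.09 with groups apart, a call lost with slide as a block and under median centring. The rises of Nop14 (0.40), Dkc1 (0.32), Npm1 (0.30) and Ncl (0.24) turned to values from -0.02 to -0.18 under median centring, none of them called, and that of Ncl was lost when any single array other than 4OHT replicate 1 or 3 was left out, that of Dkc1 without MG132 with 4OHT replicate 3.

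The smallest changes were those of Pes1 and Rrp12. Pes1 had 37.2, 37.7 and 34.7 with both compounds, against 35.3, 37.01 and 37.98 in untreated cells, and Rrp12, a small subunit export factor, had 15.6, 15.1 and 13.9, against 15.5, 14.1 and 15.5. Both sets overlapped, with changes of -0.01 ± 0.08 and -0.01 ± 0.11. For Pes1 the single compounds gave 0.17 with 4OHT and -0.31 with MG132, and for Rrp12 0.42 and -0.08. Under median centring 1 member was called higher and 22 lower than in untreated cells, where 16% of all genes were called higher and 37.7% lower.

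The effect of 4OHT in cells that also had MG132 was read from MG132 with 4OHT against MG132. There 13 members rose, Bop1 fell and 24 were not called, where 26.5% of all genes were called, 13.9% higher and 12.6% lower. The members' median was 0.19 against 0.07 over all genes, and groups were apart with 4OHT higher in 27 members and lower in 2, against 27.3% and 22.9% of all genes (50.2% in either direction). The rises comprised 4 of 10 small subunit factors, 4 of 6 scaffold proteins, 3 of 8 large subunit factors, 1 of 4 C/D genes, 1 of 4 H/ACA genes and no RNA polymerase I gene.

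Ddx21 had 18.4, 17.9 and 16.4 in cells given both compounds, against 7.87, 7.29 and 6.68 in MG132 cells. It rose 2.42-fold (1.27 ± 0.09, adjusted p = 2.7e-05), the largest change of any member in this comparison, with the groups far apart. Imp3 had 29.6, 29.7 and 24.3 with both compounds, against 21.1, 19.9 and 17.3 with MG132 (0.52 ± 0.11, adjusted p = 0.0065). Nip7 had 29.9, 31.1 and 31.5, against 23.1, 22.4 and 21.4 (0.47 ± 0.08, adjusted p = 0.0025). Neither gene had overlapping groups. Rrs1 had 11.6, 11.2 and 10.5 with both compounds and 8.79, 8.04 and 6.64 with MG132 (0.51 ± 0.13, adjusted p = 0.018), a call lost without MG132 replicate 3 or MG132 with 4OHT replicate 1 or 2. Dkc1 rose by 0.39 ± 0.09, Pno1 by 0.40 ± 0.08 and Wdr43 by 0.46 ± 0.14, the last lost without the same 3 arrays. Wdr12, with 8.21, 7.67 and 8.36 against 8.22, 7.90 and 8.11, and Utp20, with 11.8, 11.7 and 13.3 against 12.5, 11.8 and 12.4, had the smallest changes (0.00 ± 0.10 both) and overlapping groups.

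Bop1 had 9.99, 9.69 and 10.8 with both compounds, against 13.02, 13.8 and 14.4 with MG132 (-0.44 ± 0.11, adjusted p = 0.013). The groups were apart, and the call was lost without MG132 with 4OHT replicate 2. Within slide 2, which held the 3 doubly treated arrays and 1 MG132 array, Ddx21 (1.39, adjusted p = 0.025) and Rrs1 (0.74, adjusted p = 0.048) were called, and Imp3, Nip7 and Bop1 were at 0.68, 0.52 and -0.51 and did not pass (adjusted p = 0.088, 0.067 and 0.084). The 14 calls became 7 with slide as a block (7 higher, 0 lower, against 5.91% and 5.22% of all genes). Under quantile normalization they became 9 (7 higher, 2 lower, against 11.9% and 15.5%). Median centring gave 4 (3 higher, 1 lower, against 9.09% and 13.1%), and no filter on dim probes gave 6 (5 higher, 1 lower, against 5.52% and 5.29%). There were 9 without MG132 replicate 2 (8 higher, 1 lower, against 8.79% and 8.8%). Without MG132 replicate 3 there were also 9 (8 higher, 1 lower, against 15.7% and 10.9%). Leaving out MG132 with 4OHT replicate 1 gave 8 (7 higher, 1 lower, against 8.55% and 8.86%). Without MG132 with 4OHT replicate 2 there were 5 (5 higher, 0 lower, against 8.93% and 8.28%). The 5 kept whichever array was left out were Dkc1, Imp3, Pno1, Nip7 and Ddx21. Of these, Dkc1 and Pno1 lost the call within slide 2 and when slide was a block, and Dkc1 also under median centring and with the mean over probes.

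The 2 4OHT comparisons share no array. Of the 21 members that rose with 4OHT alone, 10 also rose with 4OHT in MG132 cells, which is 47.6% of the 21 and 76.9% of the 13. Over all genes 1901 were shared, 51.0% of each list. The 10 were Rrp9, Wdr43, Imp3, Pno1, Ltv1, Rrs1, Nip7, Ncl, Ddx21 and Gnl3. Across the 38 members the changes correlated with r = 0.64, and across all genes with r = 0.63, as a description over probes of the same arrays.

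**Figure D3:**
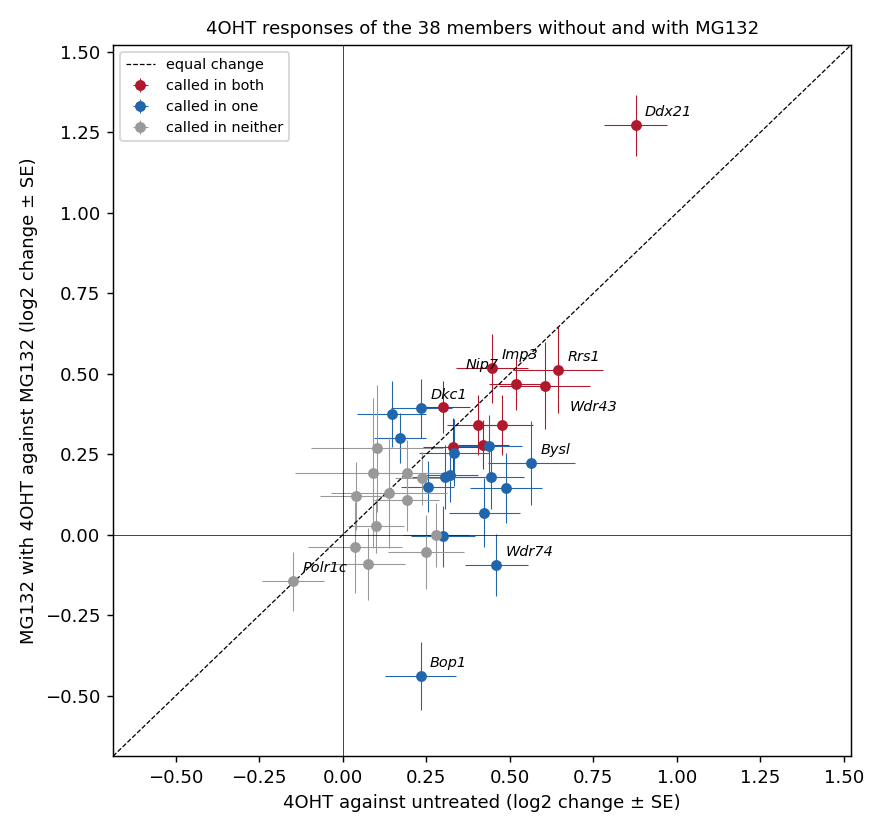
Log2 change with 4OHT in MG132 cells (vertical) against that without MG132 (horizontal) for the 38 members, with SE bars; red points were called in both, blue in one and grey in neither, and the dashed line marks equal change. Ddx21 lies at the upper right (0.88 and 1.27) and Bop1 at the bottom (0.23 and -0.44).

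The effect of MG132 in cells that also had 4OHT was read from MG132 with 4OHT against 4OHT. Here 3 members rose, 18 fell and 17 were not called, where 50.2% of all genes were called, 29.4% higher and 20.9% lower. The members' median was -0.23 against 0.13 over all genes, and groups were apart with MG132 lower in 24 members and higher in 4, against 23.8% and 33.7% of all genes (57.5% in either direction). Falls were counted in 6 of 8 large subunit factors, 6 of 10 small subunit factors, 2 of 6 RNA polymerase I genes, 2 of 6 scaffold proteins, 1 of 4 C/D genes and 1 of 4 H/ACA genes. No slide held both groups.

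Nop10 had 12.9, 12.6 and 11.7 in cells given both compounds, against 27.8, 36.1 and 33.3 in 4OHT cells, a 2.61-fold fall (-1.38 ± 0.11, adjusted p = 5.3e-06). Bop1 had 9.99, 9.69 and 10.8, against 22.6, 18.6 and 20.4, a 2.02-fold fall (-1.01 ± 0.11, adjusted p = 3.6e-05). Both had groups far apart. Nop16 had 6.52, 6.16 and 6.01 with both compounds and 11.2, 12.3 and 12.5 with 4OHT (-0.95 ± 0.10, adjusted p = 3.9e-05). Imp3 had 29.6, 29.7 and 24.3 with both and 51.2, 54.2 and 50.1 with 4OHT (-0.90 ± 0.11, adjusted p = 8.3e-05). Wdr74 had 8.79, 8.91 and 9.21 with both and 14.7, 17.9 and 17.2 with 4OHT (-0.88 ± 0.10, adjusted p = 4.6e-05). In these 3 genes every doubly treated array was below every 4OHT array. Gnl3 (-0.75), Polr1b (-0.74), Wdr12 (-0.72) and Bysl (-0.71) followed. With slide as a block 7 falls remained called, at -1.35 for Nop10, -1.11 for Bop1, -0.77 for Nop16 and -0.65 for Imp3, with Wdr74, Wdr12 and Gnl3. In that fit 10.9% of all genes were called higher and 8.97% lower.

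The rises were those of Nop58, Utp20 and Polr1a. Nop58 had 55.4, 54.7 and 52.8 with both compounds, against 25.5, 41.4 and 42.3 with 4OHT (0.61 ± 0.17, adjusted p = 0.014). Utp20 had 11.8, 11.7 and 13.3, against 9.36, 8.04 and 7.93 (0.54 ± 0.10, adjusted p = 0.0011), and Polr1a 15.04, 14.3 and 15.5, against 11.68, 10.8 and 11.4 (0.41 ± 0.09, adjusted p = 0.0029). All 3 had groups apart, and none was called with slide as a block (0.66, 0.50 and 0.39). Without 4OHT replicate 1 Nop58 was at 0.38 (adjusted p = 0.0081), and Tcof1, not called over all arrays (-0.20 ± 0.23), fell by 0.54 (adjusted p = 0.0028). On the fourth Nop58 probe, not low on that array, the values were 49.5, 47.5 and 44.5 with both compounds. With 4OHT they were 42.2, 42.2 and 42.0, a smaller gap than on the probe that stands for the gene. Rrn3, with 21.5, 20.7 and 21.2 against 24.2, 19.1 and 18.0, and Npm1, with 313, 317 and 324 against 327, 292 and 297, had overlapping groups and the smallest changes, 0.06 ± 0.11 and 0.06 ± 0.08. Under median centring 1 member was called higher and 28 lower (18.6% and 29.7% of all genes), and under quantile normalization 3 and 13 (26.3% and 21.9%).

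The 2 MG132 comparisons share no array either. Polr1a, Nop58 and Utp20 rose in both, which is 3 of the 4 called higher against untreated cells and all 3 called higher against 4OHT cells. The 13 that fell in both were 86.7% of 15 and 72.2% of 18. These were Polr1b, Polr1c, Nop10, Imp3, Pno1, Bysl, Bop1, Wdr12, Nop16, Nip7, Wdr74, Nolc1 and Gnl3. Over all genes 3682 fell in both, 72.3% and 65.7% of the lists, and 4942 rose in both, 76.4% and 62.7%. Across members the changes correlated with r = 0.88 and across all genes with r = 0.74, as a description.

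**Figure D4:**
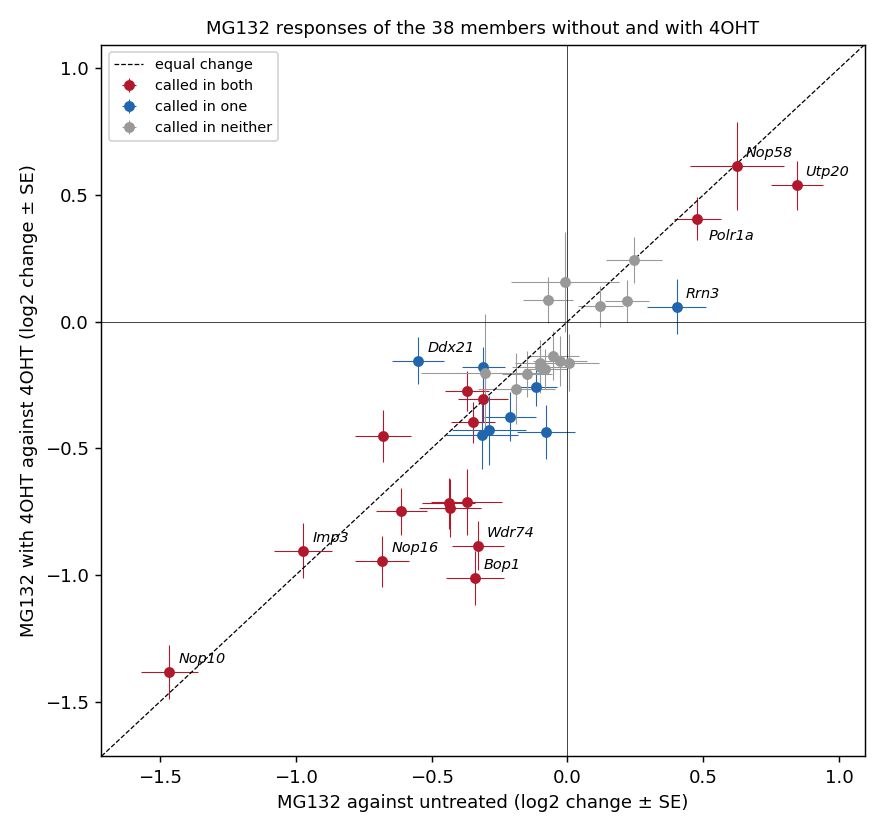
Log2 change with MG132 in 4OHT cells (vertical) against that without 4OHT (horizontal) for the 38 members, with SE bars; red points were called in both, blue in one and grey in neither, and the dashed line marks equal change. Nop10 lies at the lower left (-1.46 and -1.38), Utp20 at the upper right (0.84 and 0.54), and Bop1 lies below the line (-0.34 and -1.01).

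Whether the 4OHT response differed with and without MG132 was tested as the difference of the 2 responses. Of the members 2 (5.26%) were called, both lower with MG132 present. That is near the 6.55% of all genes called, 2.94% higher and 3.61% lower. Both belong to the large subunit. The 4OHT change of Bop1 was -0.44 with MG132 and 0.23 without it, a difference of -0.67 ± 0.15 (95% interval -1.004 to -0.34, adjusted p = 0.026). That of Wdr74 was -0.09 with MG132 and 0.46 without it, a difference of -0.55 ± 0.14 (95% interval -0.85 to -0.25, adjusted p = 0.038). Neither call was kept whichever array was left out. That of Bop1 was lost without untreated replicate 1 or 2, MG132 replicate 2, or MG132 with 4OHT replicate 1 or 2, and that of Wdr74 without any array except untreated replicate 3 and 4OHT replicate 1. With slide as a block the differences were -0.74 (adjusted p = 0.074) and -0.63 (adjusted p = 0.086).

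The other 36 members were not called. Ddx21 had the largest positive difference, 0.40 ± 0.13 (95% interval 0.10 to 0.69, adjusted p = 0.12). Rrp12 was at -0.35 ± 0.15, Rrn3 at -0.34 ± 0.15, Gar1 at 0.17 ± 0.28 and Rrp9 at -0.14 ± 0.11. Polr1c, with 26.1, 26.7 and 27.0 with both compounds, 30.0, 29.9 and 28.4 with MG132, 31.0, 31.5 and 36.4 with 4OHT and 34.8, 35.1 and 39.7 untreated, had a difference of 0.00 ± 0.13 (95% interval -0.28 to 0.29). Nop56 was also at 0.00 (95% interval -0.31 to 0.30).

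Probes of a gene did not always move alike. Of the 38 members, 17 had more than 1 probe (39 probes), and in no comparison were 2 probes of one gene called in opposite directions. A second, dimmer Ncl probe had 7.05, 6.25 and 7.89 in MG132 cells, against 3.07, 3.32 and 3.73 in untreated cells, a called rise of 1.06 ± 0.15. The brighter Ncl probe had 113, 112 and 112 in MG132 cells, against 117, 121 and 124, and was not called (-0.10 ± 0.09). A dimmer Npm1 probe fell by 0.33 ± 0.10 with MG132, while the probe that stands for the gene was at 0.12 ± 0.08 and the remaining one at 0.10 ± 0.09. The second Nop56 probe had 27.1, 27.7 and 29.4 in MG132 cells, against 17.8, 17.9 and 16.5 in untreated cells, and rose by 0.69 ± 0.09, while the brighter one, fitted without MG132 replicate 1, was at 0.24 ± 0.10. Which transcripts these probes read was not tested.

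A further 115 genes of the pathway were read in the same fit. With 4OHT against untreated cells 38 rose and 1 fell, where 13.9% of all genes were called higher and 14.7% lower, and their median was 0.21 against 0.03 over all genes. The largest rises were those of Naf1, an assembly factor of the H/ACA particle (1.22 ± 0.16), the large subunit factor Noc3l (0.76 ± 0.13) and the small subunit factor Nol10 (0.74 ± 0.10), and the fall was that of the exosome subunit Exosc5 (-0.37 ± 0.08). With MG132 against untreated cells 13 rose and 47 fell, where 24.1% of all genes were called higher and 19.0% lower, with medians of -0.16 and 0.07. Ttf1, the terminator of RNA polymerase I (1.63 ± 0.26), Taf1d, of its promoter selectivity factor (1.28 ± 0.11), and Rrp36 (1.15 ± 0.12) rose most, and Exosc4 (-0.93 ± 0.11), Rpf2 (-0.92 ± 0.12) and Polr2f, a subunit common to the nuclear RNA polymerases (-0.87 ± 0.11), fell most. Of the 10 exosome genes, whose complex trims RNA precursors, 6 fell and none rose, beside the same shares of all genes.

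With MG132 and 4OHT together 32 of the 115 (27.8%) rose and 32 fell against untreated cells, near the 33.2% and 22.5% of all genes, with medians of 0.02 and 0.19. Taf1d (1.59 ± 0.11), Ttf1 (1.48 ± 0.26) and the large subunit ATPase Mdn1 (1.16 ± 0.15) led the rises, and Exosc5 (-1.13 ± 0.08), Exosc7 (-1.06 ± 0.18) and Exosc4 (-0.98 ± 0.11) the falls. Against MG132 cells, where 13.9% of all genes were called higher and 12.6% lower, 27 rose, led by Utp18 (0.92 ± 0.24), Noc3l (0.81 ± 0.13) and the kinase Riok2 (0.79 ± 0.10), and 3 fell, namely Taf1b (-0.42 ± 0.12), Exosc5 (-0.39 ± 0.08) and Pelp1 (-0.32 ± 0.08). Against 4OHT cells 10 rose and 50 fell, where 29.4% of all genes were called higher and 20.9% lower, with Ttf1 (1.74 ± 0.26), Taf1d (1.24 ± 0.11) and Rrp36 (0.76 ± 0.12) on the higher side and Exosc4 (-1.34 ± 0.11), Polr2f (-0.96 ± 0.11) and the acetyltransferase Nat10 (-0.90 ± 0.08) on the lower. For the difference of the 4OHT responses none of the 115 was called.

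Set beside the promoter windows, 8 of the 9 members with an E-box rose with 4OHT against untreated cells, as did 11 of 23 with a window and no E-box and 2 of 6 with no window on hand. Their median changes were 0.31, 0.28 and 0.24 in that order. Over all genes, with or without the motif, 13.9% were called higher. Utp20, Wdr43, Imp4, Pno1 and Ltv1 of the 9 are small subunit factors, and all 10 factors of that role rose. Utp15, Imp3, Nop14 and Bysl rose with a window and no E-box, so role and E-box overlap, and their parts were not tested. Of those with an E-box, Utp20, Imp4, Pno1, Ltv1, Nop2 and Mybbp1a lost the call without untreated replicate 2, and Rrn3 and Wdr43 kept it. Of the 11 with a window and no E-box, Nop14 alone lost it there. With MG132 against untreated cells 2 of the 9 rose and 2 fell, and 2 of the 23 rose and 12 fell. Of the 6 with no window none rose and 1 fell. The medians were -0.10, -0.31 and -0.25 in that order, and over all genes 24.1% were called higher and 19.0% lower. Ddx21, whose window as printed held neither motif, had the largest 4OHT change, and Utp20 and Wdr43, which both carry the E-box after the start, had MG132 changes of 0.84 and -0.29. These counts are a description, with no test.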

How the data were processed

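Total RNA of 12 samples was hybridised to one-colour Agilent arrays. The deposited values are processed spot intensities, which Agilent Feature Extraction 11.0.1.1 made by background subtraction, per the file headers, and the series-wide table held the same intensities. From these, the control spots (3671 of 62976) were left out, each array was divided by its 75th percentile, log2 was taken and the spots of a probe were averaged. A probe was kept where some group had it well above background on each of its arrays (34327 of 56605 probes), and each gene was read from its brightest probe. Accessions were named through RefSeq, which also gave the promoter windows (GRCm38.p6). All 12 arrays entered 1 fit with 4 group means in limma 3.58.1 (R 4.3.3), with 8 residual degrees of freedom and Benjamini-Hochberg adjustment over 26836 genes at 0.05. An exact permutation test of 3 against 3 arrays cannot go below 0.1, so adjusted p-values come from limma. No spot was saturated; 3 arrays a group limit the precision.

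The members and gene lists were chosen with earlier results of these data known. Named in full were the members with the largest called and the smallest changes of a comparison and the leader of each role, and other members were added after their values were seen. Alternatives covered the background correction, the scaling, the probe filter, the choice of probe, the arrays in the fit, the slide, the replicate number and the omission of arrays. Replicate numbers were not taken as pairs.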

Additional observations from a re-analysis of the deposited data

Results flagged for a closer look

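The 4OHT response of 2 of 38 members (5.26%) differed with and without MG132 by a test of the difference itself. That share is near the 6.55% of all genes called, so the count does not set the members apart. For Bop1, of the PeBoW complex of the large subunit, the 4OHT change was -0.44 with MG132 and 0.23 without it, a difference of -0.67 ± 0.15 (limma, adjusted p = 0.026). For Wdr74, a large subunit assembly factor, it was -0.09 with MG132 and 0.46 without it, a difference of -0.55 ± 0.14 (limma, adjusted p = 0.038). All 3 arrays given both compounds were below all MG132 arrays in Bop1, while those groups overlapped in Wdr74. Neither call was kept whichever array was left out, and with slide as a block no member was called for this difference. MG132 replicates 1 and 2 lay on another slide than the arrays given both compounds, and the part of the slide in these differences was not tested apart from the fits with slide as a block.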

How the results depend on the processing

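Over the single members and alternatives, 2078 of 5776 values kept a call and its direction, 394 lost a call and 72 gained one in the same direction, and 15 turned with a call in one or both fits. Of the values called in neither fit, 3042 kept their sign and 175 turned. In the counts that follow, brackets give the shares of all genes called higher and lower in the same fit. Quantile normalization gave 13 members for 4OHT against untreated (11.1% and 18.1%) and 9 for MG132 with 4OHT against MG132 (11.9% and 15.5%). Median centring gave 4 for 4OHT against untreated (8.43% and 20.2%) and 30, of them 29 lower, for MG132 against untreated (13% and 35.6%). It gave 4 for MG132 with 4OHT against MG132 (9.09% and 13.1%) and 0 for the difference of the 4OHT responses (3.28% and 2.2%). No filter gave 6 for MG132 with 4OHT against MG132 (5.52% and 5.29%) and 0 for the difference (1.28% and 3.71%). The 6 compared arrays alone gave 9 for 4OHT against untreated (9.35% and 9.55%). With slide as a block 8 members were called for both compounds against untreated (14.2% and 12%) and 7 against MG132 (5.91% and 5.22%). There were 7 against 4OHT (10.9% and 8.97%) and 0 for the difference (1.32% and 1.67%). Within slide 1, MG132 against untreated gave 10 (18.1% and 15.2%), and slide 2 held 1 MG132 array.

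Replicate numbers were not a pairing in the labels. In deviations from the group means, arrays of different groups correlated at -0.06 to 0.16 for replicate 1, 0.07 to 0.15 for replicate 2 and 0.12 to 0.41 for replicate 3, against -0.29 to 0.19 for different numbers. Replicate 3 differed from replicates 1 and 2 in 10.1% of all genes (limma, groups as blocks) and in Fbl and Rrs1 among the members. Brackets again give the shares of all genes called higher and lower. With the replicate block the counts were 23 for 4OHT against untreated (15.8% and 17.1%) and 21 for MG132 against untreated (26% and 21.2%). For both compounds they were 19 against untreated (34.7% and 24.1%), 14 against MG132 (16.6% and 15.6%) and 22 against 4OHT (31.3% and 22.7%). For the difference there were 2 (4.55% and 5%). With slide and replicate block together, both compounds gave 5 against untreated (12.6% and 9.98%), 5 against MG132 (4.65% and 3.96%) and 5 against 4OHT (10.2% and 7.78%). The difference gave 0 (1.2% and 1.8%). Leaving out 1 array gave 13 to 21 for 4OHT against untreated, 14 to 21 for MG132 against untreated, 16 to 20 for both compounds against untreated, 5 to 15 against MG132, 18 to 22 against 4OHT and 0 to 2 for the difference. At the lowest counts of the first 5, in that order, the shares of all genes were 10.6% and 10.9%, 21% and 15.8%, 28.7% and 20.6%, 8.93% and 8.28%, and 25.1% and 17.8%. Leaving out replicate 3 of all groups, chosen after seeing the data, gave 20 for 4OHT against untreated (15.1% and 17%) and 14 for MG132 against untreated (22.1% and 18.2%). For both compounds it gave 16 against untreated (30.3% and 21.6%), 13 against MG132 (16% and 13.6%) and 22 against 4OHT (28% and 19.6%). For the difference it gave 1 (5.79% and 5.05%).

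Under median centring, Polr1e turned to -0.35 in MG132 against untreated. In both compounds against untreated, that setting turned Rrp9 to -0.26, Dkc1 to -0.10, Nhp2 to -0.37, Utp15 to -0.36, Nop14 to -0.019, Pno1 to -0.39, Ltv1 to -0.30, Nop2 to -0.35, Ncl to -0.18, Npm1 to -0.13 and Mybbp1a to -0.27. The mean over probes turned Ncl to 0.48 with MG132 and to 0.31 with MG132 among 4OHT cells, through its second probe, and slide as a block turned Nolc1 to 0.0046 in both compounds against untreated. Median centring moves every gene with complete values by the same amount, -0.35 in MG132 against untreated and -0.42 in both compounds against untreated. The cause of the Nolc1 turn was not tested. Within a slide, both compounds against untreated or 4OHT and the difference gave no value, and for the difference all arrays are the arrays compared.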
